A study of Mus musculus with 12 samples.

Results

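The genes described here encode the machinery that fuses synaptic vesicles with the presynaptic membrane, measured in the hypothalamic arcuate nucleus (ARC) of mice with an activating mutation of AMP-activated protein kinase (AMPK). Members were chosen by gene symbol alone, as the syntaxins (Stx), synaptosomal-associated proteins (Snap), vesicle-associated membrane proteins (Vamp), syntaxin-binding proteins (Stxbp), synaptotagmins (Syt), complexins (Cplx), Unc13 and Rims proteins, Rab3 GTPases, synapsins (Syn) and Sv2 glycoproteins. The rule found 71 of the 38283 genes in the table, and no measured value entered it. RNA was taken by laser capture from the ARC of 5 wild-type (WT) and 7 homozygous (Homo) male C57BL/6 mice, freely fed and 8 weeks old, with 1 library per mouse. Homo mice carried the R299Q substitution in both copies of Prkag2, which encodes the γ2 regulatory subunit of AMPK, and WT mice carried it in neither. It is a germline knockin present in every cell from conception, with WT and Homo animals bred from heterozygous parents, so tissues other than the ARC carried it too. Values are FPKM, fragments per gene after scaling for transcript length and sequencing yield. The FPKM of a gene does not show the base change, so genotype rests on the labels.

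Vesicle fusion is driven by SNARE proteins: synaptobrevin (Vamp2) on the vesicle zips together with a syntaxin and SNAP-25 on the plasma membrane, guided by a protein of the Stxbp family. Synaptotagmins sense calcium, complexins clamp and then promote fusion, Munc13 proteins (Unc13 genes) and RIM proteins (Rims genes) prime vesicles at the active zone, Rab3 GTPases tether them, and synapsins hold a reserve pool. In the ARC this machinery releases fast transmitters, while neuropeptides such as AgRP, NPY and POMC products leave by the related dense-core vesicle route. Several members, including Stx5a, Stx6, Stx16 and Stx18, serve membrane traffic inside every cell rather than at synapses. Snap91 shares the family name but is no SNARE, since it encodes AP180, a clathrin adaptor of vesicle retrieval.

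Of the 71 members, 62 had a mean of at least 1 FPKM over the 12 libraries and were tested between genotypes. There were 61 above 0 in every library, 35 with a mean of at least 10 FPKM and 7 with a mean of at least 100 FPKM. The 9 members below the minimum were Cplx3, Cplx4, Stx11, Stx19, Syt2, Syt8, Syt15, Vamp5 and Vamp7. Syt8 and Vamp7 were listed at 0 in all 12 libraries, and the identifier of Vamp7 was absent from the annotation used here for positions. Syt2, the fast calcium sensor of hindbrain and neuromuscular synapses, averaged 0.504 FPKM, with a highest value of 1.00 FPKM in Homo 5. Markers that are no members were summed to check the tissue. The 13 pan-neuronal markers in the table summed to 975 to 1797 FPKM in WT and 1268 to 1814 FPKM in Homo, and the 9 ARC neuron markers to 1999 to 6516 and 4730 to 6571 FPKM. The 8 astrocyte markers summed to 501 to 931 and 672 to 799 FPKM, so glial RNA was present beside that of neurons. The tissue was bulk, so fewer cells of a type and less RNA per cell cannot be told apart.

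The 12 libraries fell into sets by the number of genes above 0, and this split bears on the genotype results. WT 1, WT 2 and Homo 1 to 5 had 15742 to 16467 genes above 0, and WT 3 to 5 with Homo 6 and 7 had 18141 to 18635. A single fragment was worth an estimated 0.157 to 0.336 FPKM in the first set and 0.0839 to 0.119 FPKM in the second. The estimate is the most frequent of the low values, for a transcript of 1 kb after 180 bases are taken off its length. The sets are called the shallower and the deeper set below. No member differed between these sets at a limma adjusted p under 0.05, against 0.178% of all genes tested.

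Each family was led by 1 or a few genes, and Snap25 stood above all other members. Snap25 (chromosome 2, 136713453 to 136782428, plus strand, GRCm38) had 525, 503, 417, 471 and 530 FPKM in WT 1 to 5. In Homo it ran from 368 to 578 FPKM with a median of 504 FPKM. The lowest value belonged to Homo 3 and the highest to Homo 6, and the WT range lay inside the Homo range. Its mean of 494 FPKM was above that of 99.02% of the genes tested. It made up 77.5% of the summed level of the 5 Snap members, with Snap47 next at 102 FPKM, Snap91 at 32.3 FPKM, the ubiquitous Snap23 at 5.45 FPKM and Snap29, a SNARE of general membrane traffic, last at 4.16 FPKM.

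Vamp2 (chromosome 11, 69088490 to 69092384, plus strand) was the second most abundant member, at 207 FPKM. It stood at 243, 226, 165, 160 and 238 FPKM in WT 1 to 5. Homo libraries ran from 114 FPKM in Homo 2 to 345 FPKM in Homo 5, with a median of 208 FPKM, so that both extremes of the 12 libraries were Homo. Vamp2 made up 79.0% of the Vamp family. Its close relative Vamp1, the synaptobrevin of spinal and brainstem neurons, averaged 3.91 FPKM, and Vamp4, a SNARE of endosomes and the trans-Golgi network, 33.6 FPKM. Vamp3 (10.6 FPKM) and Vamp8 (6.28 FPKM), the vesicle SNAREs of recycling and late endosomes in most cell types, lay between them.

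Stx1a, a neuronal plasma-membrane syntaxin, had 2.78, 13.5, 5.33, 6.02 and 5.08 FPKM in WT 1 to 5, and in Homo 4.22 to 9.80 FPKM with a median of 7.83 FPKM. WT 2 was the highest and WT 1 the lowest of the 12 libraries. Stx4a (40.9 FPKM), a plasma-membrane syntaxin of many cell types, Stx12 (31.7 FPKM), Stx8 (28.3 FPKM) and Stx7 (22.4 FPKM), all of endosomes, were more abundant than Stx1a. Stx16 (19.6 FPKM) and Stx5a (14.3 FPKM), of the Golgi apparatus, were next. Below 10 FPKM came Stx18 (7.65 FPKM), Stx6 (7.60 FPKM), Stx3 (4.18 FPKM), the syntaxin of ribbon synapses, Stx2 (4.02 FPKM) and the autophagosomal Stx17 (3.12 FPKM). Stx16 was uneven between libraries, at 53.1 FPKM in Homo 2 and 35.9 FPKM in WT 1 against 9.30 to 23.2 FPKM in the other 10.

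In the syntaxin-binding family, Stxbp5 (tomosyn), a brake on SNARE assembly, averaged 19.5 FPKM. Stxbp2 (9.71 FPKM), known from immune and epithelial cells, ran from 0.175 FPKM in Homo 2 to 27.4 FPKM in Homo 5. Stxbp4 averaged 6.91 FPKM, and Stxbp6 was the lowest of the family at 2.93 FPKM.

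**Figure D1:**
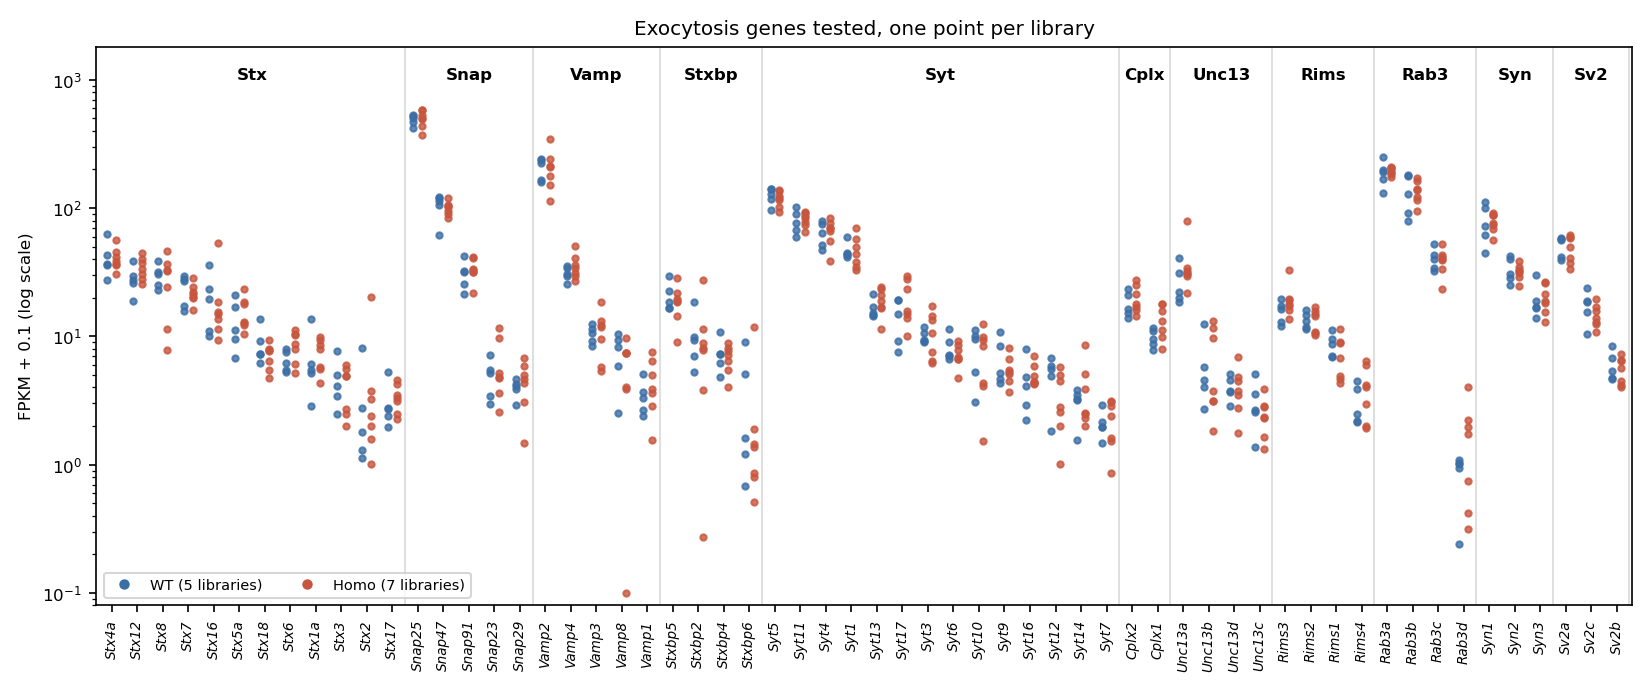
FPKM plus 0.1 on a log axis for 60 of the 62 tested members, grouped by family and ordered by mean within each, with 1 point per library (WT blue, Homo red). Snap25 stands highest at a mean of 494 FPKM and Rab3d lowest at 1.21 FPKM, and the WT and Homo points of each gene cover overlapping ranges.

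Among the synaptotagmins the order of levels was Syt5, Syt11, Syt4 and Syt1. Syt5 averaged 121 FPKM, or 30.6% of the family, with a range over the 12 libraries from 93.2 FPKM in Homo 3 to 141 FPKM in WT 1. Syt5 is a calcium-binding synaptotagmin found on dense-core vesicles, whereas Syt11 (80.7 FPKM) and Syt4 (64.7 FPKM) belong to the members with little or no calcium-triggered fusion activity of their own. Syt1, the main fast calcium sensor of forebrain synapses, had 43.2, 45.0, 41.1, 43.5 and 59.2 FPKM in WT 1 to 5, and in Homo 32.7 to 69.9 FPKM with a median of 44.0 FPKM. Syt4 had 74.6, 63.3, 47.2, 51.8 and 78.8 FPKM in WT 1 to 5, and in Homo 38.8 to 83.9 FPKM with a median of 69.5 FPKM. Syt4 exceeded Syt1 in 11 of the 12 libraries, the exception being Homo 1. Syt7, the slow sensor of asynchronous release, stood at 2.07 FPKM on average and no higher than 3.02 FPKM in any library. Of the rest, Syt13 (17.8 FPKM), Syt17 (17.1 FPKM) and the calcium-binding Syt3 (10.4 FPKM) were above 10 FPKM. Those below were Syt6 (7.57 FPKM), Syt10 (7.35 FPKM), Syt9 (5.91 FPKM), Syt16 (4.68 FPKM), Syt12 (3.95 FPKM) and Syt14 (3.41 FPKM). As a share of the family in each library, Syt5 made up 31.9% ± 1.61 (SD, n = 5) of the Syt sum in WT and 29.9% ± 2.13 (SD, n = 7) in Homo.

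Complexins were represented by Cplx2 (19.0 FPKM) and Cplx1 (11.8 FPKM), while the ribbon-synapse complexins Cplx3 and Cplx4 averaged 0.103 and 0.0111 FPKM. Cplx1 had 7.73, 11.6, 8.60, 10.9 and 9.48 FPKM in WT 1 to 5, and in Homo 7.88 to 17.7 FPKM with a median of 13.05 FPKM. Homo 3, Homo 4, Homo 6 and Homo 7 lay above every WT library, and the other 3 Homo libraries lay within the WT range. Cplx2 spanned 13.7 to 23.3 FPKM in WT and 14.3 to 27.6 FPKM in Homo.

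Priming factors were led by Unc13a at 32.6 FPKM. Unc13a, encoding Munc13-1, had 40.7, 31.0, 22.0, 18.4 and 19.7 FPKM in WT 1 to 5. In Homo it ran from 21.6 to 79.7 FPKM with a median of 31.1 FPKM. Homo 4 stood far above the rest, since the next Homo library was at 34.0 FPKM. Unc13a held 71.9% of its family, ahead of Unc13b (6.22 FPKM), Unc13d (3.90 FPKM), which serves granule release in immune cells, and Unc13c (2.61 FPKM). Among the active-zone scaffolds, Rims3 (17.8 FPKM), a short isoform gene that lacks the Rab3-binding part, and Rims2 (13.3 FPKM) were above Rims1 (7.69 FPKM) and Rims4 (3.47 FPKM). Rims1 had 11.1, 8.62, 7.00, 6.78 and 9.48 FPKM in WT 1 to 5, and in Homo 4.23 to 11.4 FPKM with a median of 6.65 FPKM.

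The vesicle-bound members were abundant. Rab3a (chromosome 8, 70754679 to 70758677, plus strand) had 251, 190, 130, 167 and 199 FPKM in WT 1 to 5, and in Homo 173 to 209 FPKM with a median of 196 FPKM. The 7 Homo values all lay inside the WT range, with an SD of 13.3 FPKM against 44.3 FPKM in WT. Rab3a made up 52.4% of the Rab3 family and Rab3b a further 133 FPKM, with Rab3c at 39.5 FPKM and Rab3d, the Rab3 of exocrine and other secretory cells, at 1.21 FPKM. Syn1 had 100, 111, 44.8, 61.3 and 72.9 FPKM in WT 1 to 5, and in Homo 56.7 to 91.2 FPKM with a median of 75.9 FPKM. Syn2 averaged 32.5 FPKM and Syn3 19.6 FPKM. Sv2a, the binding site of the antiepileptic levetiracetam, averaged 49.5 FPKM and held 69.9% of its family. It had 56.7, 57.4, 41.6, 39.3 and 58.2 FPKM in WT 1 to 5, and in Homo 33.3 to 61.8 FPKM with a median of 49.7 FPKM. Sv2c followed at 15.7 FPKM and Sv2b, the form of many forebrain glutamate neurons, at 5.63 FPKM. Homo 3 was the lowest of the 12 libraries for Sv2a, Sv2b and Syn2 alike.

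**Figure D2:**
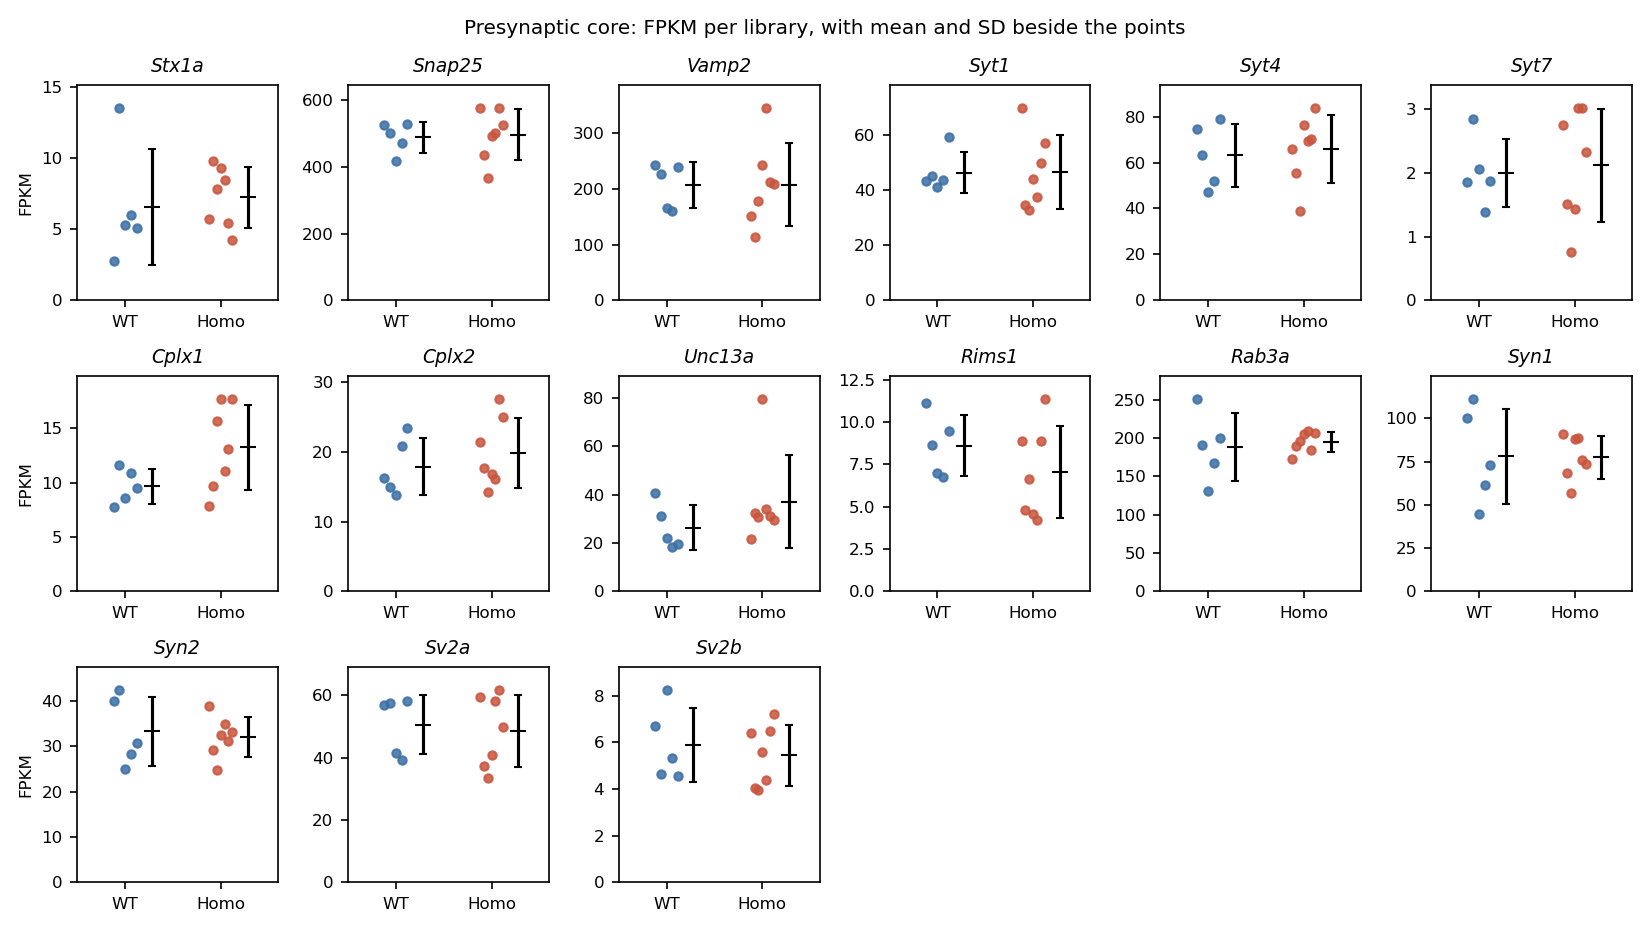
FPKM per library of 15 members of the presynaptic core, 1 panel per gene with its own axis from 0, WT in blue and Homo in red, and the mean with SD beside each group. The groups overlap in every panel, as for Snap25, with 489 ± 46.6 FPKM (WT) and 498 ± 75.7 FPKM (Homo).

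Levels of the members varied less between libraries of a genotype than those of genes at large. The coefficient of variation within genotypes had a median of 29.6% over the 62 members and 43.0% over all 14017 genes tested. Split by level, the medians were 42.6% and 53.4% at 1 to 10 FPKM, 24.95% and 33.6% at 10 to 50 FPKM, and 17.8% and 27.1% at 50 FPKM and above. The steadiest were Snap25 (13.3%), Syt5 (14.2%) and Rab3a (15.6%), and the most variable of those tested were Stx2 (140%) and Stxbp6 (132%). Stx2 was at 20.2 FPKM in Homo 1, and its next highest value was in WT 5. Libraries also shifted as a whole: Homo 3 was the lowest library for 22 of the 62 members and WT 3 for 14. Median levels of all genes tested were lowest in these libraries too, at 2.63 in Homo 3 and 2.76 in WT 3 on the log2(FPKM + 1) scale, against 2.80 to 3.06 in the other 10. WT 3 also had the lowest sums of the neuron (975 FPKM), ARC neuron (1999 FPKM) and astrocyte (501 FPKM) markers and the highest of the pituitary markers (117 FPKM). The part of these shifts in the members' levels was not tested.

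Promoter sequences are shown for Rab3b and Rab3d, members of one family whose levels lie far apart and whose windows differ in CpG number. RefSeq promoter windows on GRCm38.p6 matched 54 of the 71 members by symbol, through 70 windows, and the 250 bases before each start site were read. Rab3b, at 133 FPKM, and Rab3d, at 1.21 FPKM, are printed 5′ to 3′ on the gene's strand with each CpG in capitals. Rab3b lies at chr4:108878820-108879069 on the plus strand and Rab3d at chr9:21918184-21918433 on the minus strand.
Rab3b: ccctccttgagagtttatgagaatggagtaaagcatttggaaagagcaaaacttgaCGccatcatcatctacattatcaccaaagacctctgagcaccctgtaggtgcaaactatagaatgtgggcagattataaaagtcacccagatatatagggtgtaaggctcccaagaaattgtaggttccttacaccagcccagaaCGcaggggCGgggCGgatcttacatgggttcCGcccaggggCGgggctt
Rab3d: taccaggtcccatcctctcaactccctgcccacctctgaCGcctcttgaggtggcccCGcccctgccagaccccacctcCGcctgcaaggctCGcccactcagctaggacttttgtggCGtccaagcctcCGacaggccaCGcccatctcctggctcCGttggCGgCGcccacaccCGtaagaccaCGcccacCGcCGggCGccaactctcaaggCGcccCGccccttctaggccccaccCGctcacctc

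The window of the abundant Rab3b held 6 CpG and that of the scarce Rab3d 18 CpG, and both windows of Rab3a, the most abundant of the family at 192 FPKM, lay near Rab3d with 16 and 15 CpG. Rab3c, at 39.5 FPKM, had 7 CpG. For some member windows, among them that of Rab3c and the 15-CpG window of Rab3a, the bases after the start were not found in the gene's annotated transcripts. Those windows were kept. The 70 windows of the 54 matched members held a median of 14.5 CpG, against 6 over the 32851 windows of all genes. Those 32851 windows were not limited to the genes tested, and a gene with several windows counts once for each. Membership and expression in the tissue therefore cannot be told apart, here or in the letter counts below. Matched members of at least 50 FPKM and those under 10 FPKM had the same median of 16 CpG, counting the richest window of each gene (5 and 30 genes). The letters TATAAA, on either strand, stood in 5 of the 70 member windows, Rab3b among them, and in 12.4% of all windows. The letters GGGCGG, on either strand, stood in 42 member windows (60.0%) and in 32.7% of all windows. These matches are descriptions of sequence and were not tied to binding.

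Paralogs were compared within each library by 12 ratios of FPKM plus 1, of which 10 are described. In 7 of these the first gene was higher in all 12 libraries. As a geometric mean over the libraries, Snap25 was 81.9-fold above Snap23, Vamp2 43.1-fold above Vamp1, Syt1 15.6-fold above Syt7 and Sv2a 7.61-fold above Sv2b. Unc13a was 4.99-fold above Unc13b, Rab3a 4.81-fold above Rab3c and Syn1 2.31-fold above Syn2. Since 1 was added to both values, ratios against low genes such as Vamp1 and Snap23 are understated. The other 3 ran the opposite way: Rims1 was below Rims2 in all 12 libraries (ratio 0.592), and the ratios of Cplx1 to Cplx2 (0.631) and Syt1 to Syt4 (0.723) were above 1 in 2 libraries and 1 library.

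One of the 12 ratios had an exact p under 0.05 between genotypes before adjustment. The log2 ratio of Vamp2 to Vamp1 was 5.86, 5.62, 5.65, 5.50 and 5.32 in WT 1 to 5, and in Homo it ran from 5.04 in Homo 4 to 5.55 in Homo 2. The groups overlapped, with WT 4 and WT 5 among the Homo values. The mean was 5.59 ± 0.20 (SD, n = 5) in WT and 5.32 ± 0.17 (SD, n = 7) in Homo, a difference of -0.28 (two-sided exact permutation p = 0.029, and 0.019 with genotypes rearranged within the library sets). After Benjamini-Hochberg adjustment over the 12 ratios the exact permutation p was 0.348. The difference was -0.42 in the shallower set and -0.18 in the deeper. Mean Vamp2 was 206 and 207 FPKM in WT and Homo, and mean Vamp1, a low gene that is sensitive to the value added, was 3.33 and 4.33 FPKM. With 0.1 in place of 1, none of the 12 ratios had an exact p under 0.05. The next smallest exact permutation p was 0.141, for Rims1 to Rims2.

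**Figure D3:**
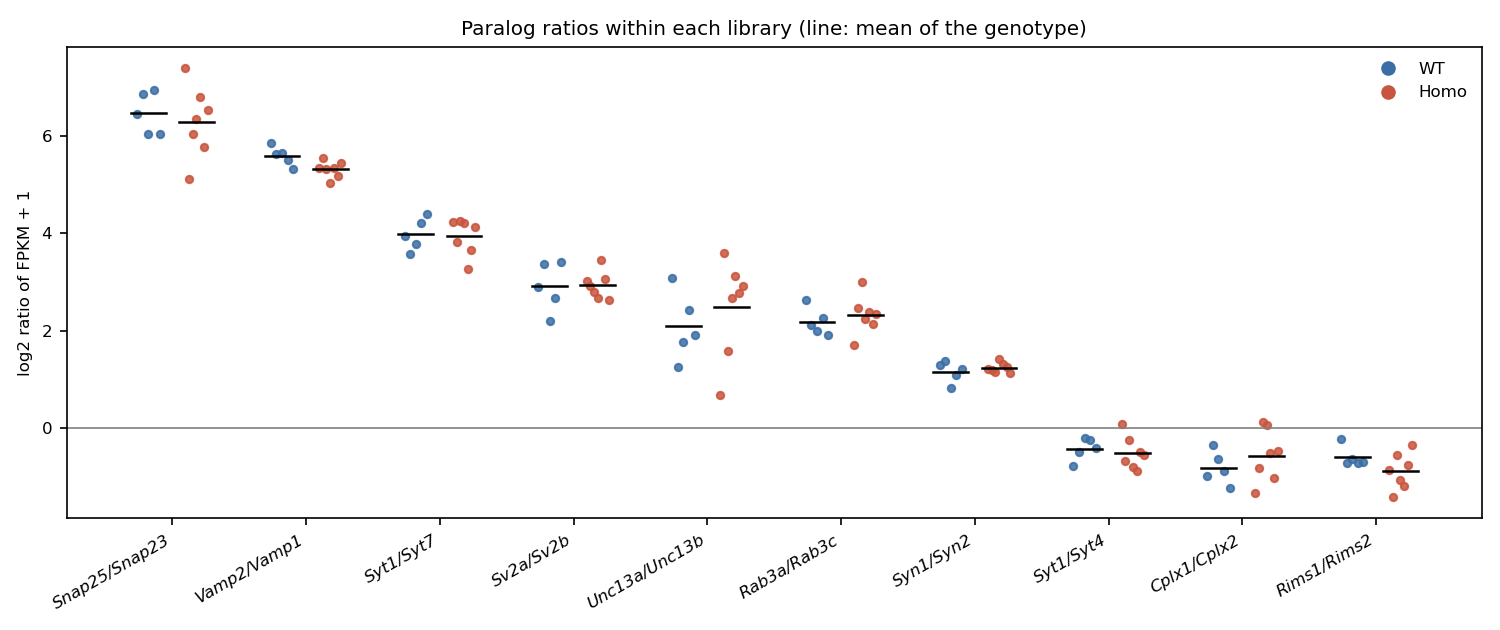
Log2 ratio of FPKM plus 1 for 10 pairs of paralogs, 1 point per library (WT blue, Homo red) and a line at each genotype's mean; values above 0 mean that the first gene is higher. For Vamp2/Vamp1 the WT mean is 5.59 and the Homo mean 5.32, and the points of both genotypes overlap in each pair.

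Whether chronic AMPK activation altered this machinery in the ARC was then read from Homo against WT, with limma on log2(FPKM + 1) over all genes tested. No member passed an adjusted p under 0.05, where 1 of 14017 genes did (0.00713%). No member had an unadjusted limma p under 0.05 in either direction, where 3.05% of all genes did with higher and 2.5% with lower values in Homo. No member had an exact permutation p under 0.05, where 5.35% of all genes did. No member's genotypes were without overlap, where 0.128% of all genes lay wholly above and 0.0927% wholly below WT in Homo. The members' median log2 fold change was 0.02, with 34 higher (54.8%) and 28 lower in Homo, beside a median of -0.01 and 49.3% higher over all genes tested. The summed FPKM of all members was 2334 ± 373 in WT and 2382 ± 258 in Homo (SD, n = 5 and 7).

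Intervals show what differences these data leave possible. The 95% limma interval of the log2 fold change had a half-width from 0.32 (Snap25) to 1.29 (Stxbp2), with a median of 0.50. It narrowed with level, with a median half-width of 0.39 for the 10 members of at least 50 FPKM, 0.45 for the 25 at 10 to 50 FPKM and 0.63 for the 27 below 10 FPKM. In 52 of the 62 members the interval lay within 1 log2 unit of 0, and in 13 within 0.5. All 62 estimates lay within 0.5 of 0. For the core SNARE genes the intervals ran from -0.30 to 0.33 (Snap25, estimate 0.01) and from -0.56 to 0.47 (Vamp2, -0.05). Syt1 had an estimate of -0.03 (-0.47 to 0.41), Rab3a of 0.08 (-0.26 to 0.43), Syn1 of 0.04 (-0.43 to 0.52) and Sv2a of -0.07 (-0.50 to 0.35). These intervals are for single genes and unadjusted, so they are not limits of detection. A change larger than these bounds could also miss the adjusted threshold at this depth and number of animals.

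The smallest unadjusted p among the members belonged to Cplx1, with means of 9.66 FPKM for WT and 13.3 FPKM for Homo (log2 fold change 0.38, SE 0.22, limma p = 0.107, adjusted p = 0.915, two-sided exact permutation p = 0.0947). Of the 7 Homo libraries, 4 lay above all WT libraries. Next with higher Homo means were Stx6 of the trans-Golgi network (0.33), Syt17 (0.45), Unc13a (0.42), Stx12 (0.28) and Rims3 (0.28), each with a limma adjusted p of 0.915. Single libraries moved several of these: Unc13a was 0.22 without Homo 4, Rims3 0.15 without Homo 3, and Syt17 and Stx12 0.27 and 0.15 without WT 3. Rims3 reached 32.5 FPKM in Homo 3 against 19.4 FPKM in the next Homo library.

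With lower Homo means, the smallest p belonged to Syt12, a synaptotagmin that does not bind calcium. It had 1.74, 4.81, 6.67, 5.50 and 5.78 FPKM in WT 1 to 5, and in Homo 0.913 to 5.64 FPKM with a median of 2.73 FPKM. Homo 2 to 5 lay below 4 of the WT libraries but around the value of WT 1. The log2 fold change was -0.50 with a limma adjusted p of 0.915, and without WT 1 it was -0.75 with an adjusted p of 0.767. WT 1 and Homo 2 to 5 all belong to the shallower set, as do WT 2 (4.81 FPKM) and Homo 1 (5.64 FPKM), which were not low. The log2 fold change of Syt12 was -0.22 in the shallower set and -0.31 in the deeper. The cause of the low values was not tested. With the library set as a term in the limma model the log2 fold change of Syt12 was -0.26 (unadjusted p = 0.426). Rims1 (-0.31), Stx18 of the endoplasmic reticulum (-0.25), Sv2c (-0.22), Vamp8 (-0.47) and Syt6 (-0.17) followed, with limma adjusted p between 0.919 and 0.931. Vamp8, listed at 0 in Homo 4, was -0.06 without that library. Stx18 and Syt6 were -0.09 and -0.06 without WT 1, Sv2c -0.10 without WT 5, and Syt6 -0.08 without Homo 3.

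**Figure D4:**
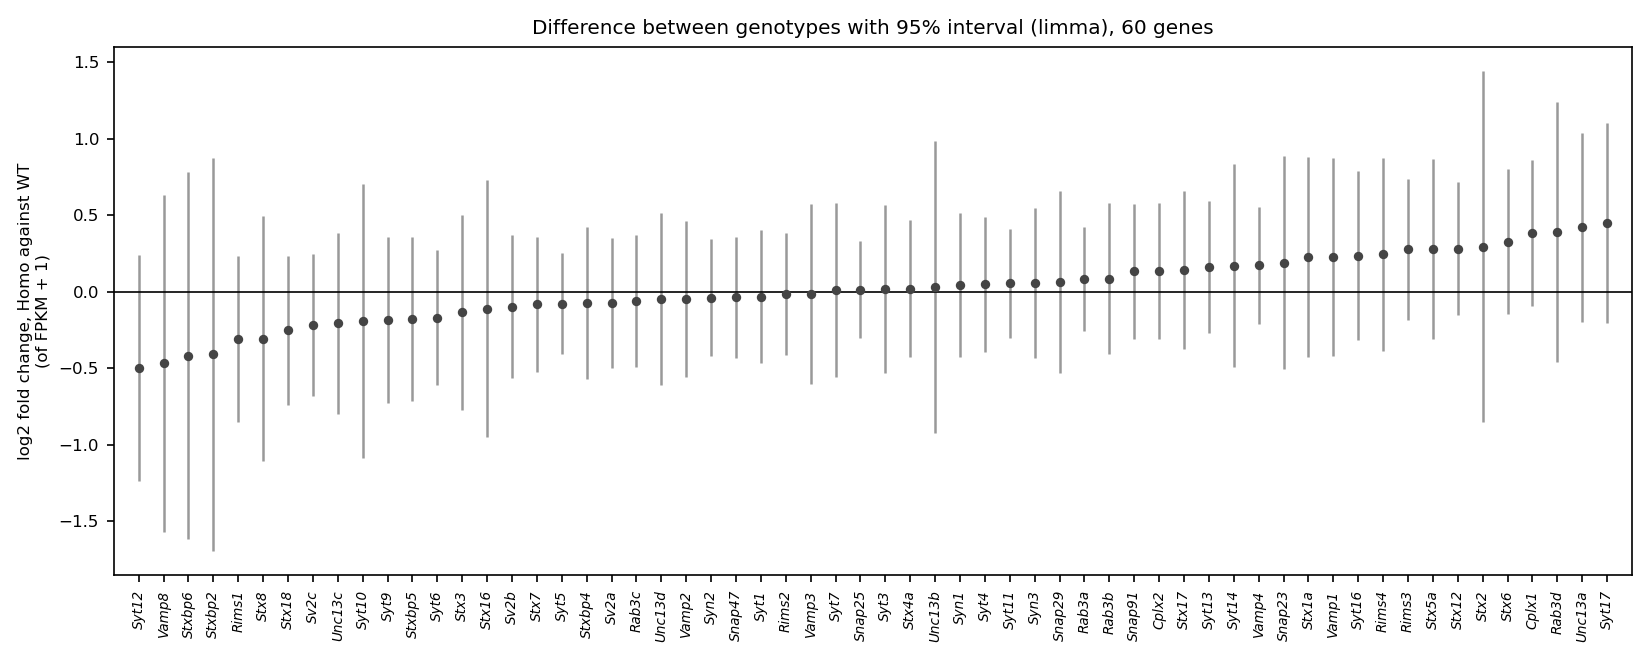
Log2 fold change of Homo against WT, on the FPKM plus 1 scale, for 60 of the 62 tested members in rising order, with its 95% limma interval as a bar. Estimates run from -0.50 for Syt12 to 0.45 for Syt17, and every bar crosses 0.

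By family, the estimates were mixed in sign. In the syntaxins 8 of 13 were higher and 5 lower in Homo, in the synaptotagmins 8 of 14 and 6, in the Vamp genes 2 of 5 and 3, and in the Stxbp genes 1 of 5 and 4. All 3 Sv2 genes had lower means (-0.22 to -0.07) and both tested complexins higher means (0.14 and 0.38). None of these genes passed the test, so the counts describe signs only.

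The library sets gave different pictures of genotype. In the shallower set (2 WT and 5 Homo) the members' median log2 fold change was -0.15, with 22 higher (35.5%) and 40 lower in Homo, beside a median of -0.08 and 40.1% higher over all genes tested. In the deeper set (3 WT and 2 Homo) it was 0.22, with 48 higher (77.4%) and 14 lower, beside 0.13 and 64.6% over all genes tested, so genes at large leaned the same way in each set. The sign was opposite between the sets for 46 of the 62 members (74.2%) and for 50.9% of all genes tested. Over the members the fold changes of the sets had a Pearson r of -0.43, beside 0.03 over all 14017 genes, as a description over genes that share libraries and are not independent. With the set as a term in the limma model the members' median was 0.03, beside 0.01 over all genes tested, and no member had an unadjusted p under 0.05, where 4.78% of all genes did.

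Rab3b showed the clearest difference between the sets. It had 177 and 181 FPKM in WT 1 and WT 2, against 94.5 to 163 FPKM in Homo 1 to 5, all below both WT values. In the deeper set it had 78.9, 91.8 and 129 FPKM in WT 3 to 5, against 171 and 140 FPKM in Homo 6 and Homo 7, both above all 3 WT values. The log2 fold change was -0.52 in the shallower set and 0.65 in the deeper, and the limma interaction had an adjusted p of 0.876 over all genes tested. Rab3b, Stx7 (-0.49 and 0.40) and Rims1 (-0.71 and 0.35) had an unadjusted interaction p under 0.05, as did 726 of all 14017 genes (5.18%). Of the 5 deeper libraries WT 3, which had the lowest neuron marker sum, was the lowest for Rab3b and Stx7. For Rims1 the lowest of them was WT 4, at 6.78 FPKM against 7.00 FPKM in WT 3. The part of neuron content in these differences was not tested.

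**Figure D5:**
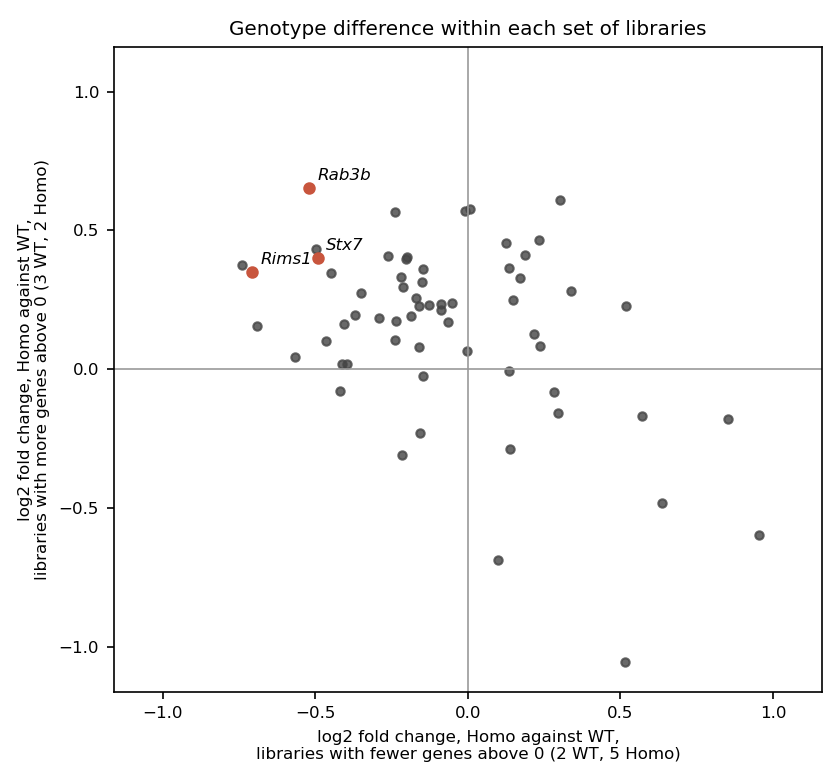
Log2 fold change of Homo against WT for each of the 62 tested members, in the shallower set on the horizontal axis (2 WT, 5 Homo) and in the deeper set, with more genes above 0, on the vertical axis (3 WT, 2 Homo). Most points lie to the upper left, with opposite signs for 46 members, and the 3 named genes had an interaction p under 0.05.

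Cell markers were compared between genotypes with the members. The pan-neuronal markers summed to 1475 ± 315 FPKM in WT and 1596 ± 194 FPKM in Homo (SD, n = 5 and 7, two-sided exact permutation p = 0.437). The 8 microglial markers summed to 88.6 ± 20.4 FPKM in WT and 130 ± 22.1 FPKM in Homo (exact permutation p = 0.0076, and 0.0608 after adjustment over 8 marker lists). In the remaining 6 lists the exact permutation p was 0.306 or more. The ARC neuron sum hides mixed signs: 8 of its 9 genes were higher in Homo, beside 49.3% of all genes tested. Their median log2 fold change was 0.43, and the smallest limma adjusted p was 0.887. The 1 lower gene, Sst, was the most abundant of the list in WT, at 1532 FPKM and 1249 FPKM in Homo. Taken relative to the mean of the neuronal markers in the same library, the members' median log2 fold change was -0.04, with 26 higher (41.9%) and 36 lower in Homo, beside -0.06 and 42.0% higher over all genes tested. No member then had an unadjusted limma p under 0.05, where 6.5% of all genes did.

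The neighbors of these genes in the vesicle cycle were read from 3 lists. Of 21 release partners outside the rule, such as Nsf, the Munc13-related Cadps genes and the active-zone scaffolds Bsn and Pclo, 9 were higher and 12 lower in Homo, with no unadjusted p under 0.05. Its smallest limma p in each direction belonged to Sytl4, with means of 10.6 and 13.1 FPKM in WT and Homo (adjusted p = 0.919), and Sytl5, at 3.81 and 2.61 FPKM (adjusted p = 0.915). Of 14 genes of the vesicle membrane and its proton pump, 9 were higher and 5 lower. Over all genes tested, 3.05% had an unadjusted limma p under 0.05 with higher and 2.5% with lower values in Homo. In this list 1 gene had such a p. That gene was Atp6v1e1, a stalk subunit of the vacuolar proton pump, with 51.4 ± 14.0 FPKM for WT and 75.0 ± 17.7 FPKM for Homo (SD, log2 fold change 0.55, limma adjusted p = 0.855), while Atp6v0c was at 198 and 167 FPKM (-0.32, adjusted p = 0.919).

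Of 23 genes of vesicle retrieval, 11 were higher and 12 lower in Homo. An unadjusted limma p under 0.05 was found for 1 of them, beside 3.05% (higher) and 2.5% (lower) of all genes tested. Ap2a1, a subunit of the clathrin adaptor AP-2, averaged 18.7 ± 5.71 FPKM for WT and 28.3 ± 6.73 FPKM for Homo (SD, log2 fold change 0.58, limma adjusted p = 0.855). Synj1, a lipid phosphatase that helps vesicles shed their clathrin coat, was at 247 and 174 FPKM (-0.54, adjusted p = 0.905). The median log2 fold changes of the 3 lists were -0.03, 0.11 and -0.0045, against -0.01 over all genes.

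Levels that moved most like those of 2 central members over the 12 libraries were listed as a description. For Snap25 these were Ntrk2, the BDNF receptor (Pearson r = 0.945), Ptprj (0.929), Set (0.918), Tmem130 (0.916) and Zyg11b (0.913). For Syt1 they were Endod1 (0.955), Peli2 (0.947), AC027184.1 (0.945), Slc24a3 (0.911) and Dennd4a (0.896). The r with the other tested members had a median of 0.382 for Snap25 and 0.238 for Syt1, against 0.240 and 0.166 with all genes tested. No member was among the 5 most alike to either gene, and the points share library depth and the highest of 14017 values were picked.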

How the data were processed

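RNA was measured in laser-captured ARC from 5 WT and 7 Homo mice, 1 library each. The authors amplified the RNA across the whole transcriptome (NuGEN), sequenced bar-coded libraries and deposited 1 table of FPKM values for 38283 genes. The submitters' processing notes name TopHat2 2.0.8, Cufflinks 2.2.1 and GRCm38, with no roles or settings. Such amplification adds noise to low genes. FPKM are not counts, so fragment numbers could only be estimated, from the most frequent of the low values. In each library 10 rows held 95.9% to 98.1% of the summed FPKM. All 12 columns were matched to mice by the labels (Homo 4 and Homo 5 by genotype and number). No 2 libraries were identical, and Spearman correlations between them were 0.871 to 0.906.

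Values were taken as log2(FPKM + 1) with no further scaling, so a fold change understates that of low genes. Genes averaging 1 FPKM or more (14017) entered limma 3.58.1 under R 4.3.3 (lmFit and eBayes, with trend and robust options) with a single genotype term, Benjamini-Hochberg adjustment over all of them and a threshold of 0.05. Exact two-sided permutation tests used all 792 ways to label 5 libraries WT and 7 Homo (smallest possible p 0.0013) or the 210 ways within library sets (0.0048), in Python 3.11.15 with scipy 1.17.1. Alternatives were a pseudocount of 0.1, no filter, a minimum of 5 FPKM, quantile and upper-quartile scaling, array weights, the library set as a term or analysed alone, a block on replicate number, and each library left out. Values relative to neuronal markers and the count of ratios under the threshold were added after the data were seen. The scripts were tested on simulated data.

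The members and lists were chosen with earlier results of these data known. Members named are those of a presynaptic core list, the 6 with the smallest p in each direction, any without overlap, and the highest and lowest of each family; other members named for their values were singled out after those were seen. Gene positions came from GENCODE mouse release 21 (GRCm38), which held 70 of the 71 identifiers, and promoter windows from RefSeq. Of the members, 2 are counted in all totals but not reported here.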

Additional observations from a re-analysis of the deposited data

Results flagged for a closer look

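Among 82 groups of 5 WT or 7 Homo values, over the named members and ratios, 8 had 1 library farther from the rest than Dixon's 95% limit allows. Chance flags about 1 in 20 groups, and low genes with few fragments enter this count. WT 1 was low for Rab3d at 0.139 FPKM, where the other WT libraries had 0.846 to 0.983 FPKM, and for Syt12 at 1.74 FPKM, where they had 4.81 to 6.67 FPKM. In the log2 ratio of Rims1 to Rims2 WT 1 was high at -0.22, against -0.70 to -0.62. WT 5 was high for Syt1 at 59.2 FPKM, against 41.1 to 45.0 FPKM.

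Homo 3 was high for Rims3 at 32.5 FPKM, against 13.5 to 19.4 FPKM. Homo 4 was high for Unc13a at 79.7 FPKM, against 21.6 to 34.0 FPKM, and listed Vamp8 at 0 where the others had 3.79 to 9.54 FPKM. Homo 5 was high for Stxbp6 at 11.7 FPKM, against 0.414 to 1.79 FPKM.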

How the results depend on the processing

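No member had an adjusted p under 0.05 under any alternative run. The members' median log2 fold change, 0.02 with all libraries, ran from -0.15 in the shallower set to 0.22 in the deeper set, so its sign was not stable. Left out in turn, single libraries moved that median from -0.04 to 0.08. The count of members with an unadjusted limma p under 0.05, 0 with all libraries, was 1 in the deeper set (Unc13a, 0.58), and 0 to 1 when a library was left out: 1 without WT 1 (Syt12, -0.75) and 1 without Homo 1 (Cplx1, 0.49). In the deeper set 566 of all 14017 genes had such a p with higher and 144 with lower values in Homo. With all libraries these shares were 3.05% and 2.5%. Over all genes, the 1 gene called became 6 in the shallower set, 19 in the deeper set, and 4 with Homo 1 to 5 only. Leaving out a library gave 1 to 3 (3 without WT 2 and 2 without Homo 4). The number of paralog ratios with an exact p under 0.05, 1 with all libraries, was 0 with a pseudocount of 0.1 and 0 to 2 when a library was left out: 0 without WT 1, WT 2, WT 3 or Homo 6 and 2 without Homo 7. The causes were not tested. Same-numbered WT and Homo libraries did not deviate together (correlations -0.05 to 0.03), and no WT library matched its own number best. A replicate block over WT 1 to 5 and Homo 1 to 5 called 2 genes and no member, with a members' median of -0.05. Precision was lowest for the members below 10 FPKM, with a median 95% half-width of 0.63.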
